A study of Mus musculus with 2 samples.

Results

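The TALE homeodomain cofactors Meis1, Meis2, Meis3, Pbx2, Pbx3, Pbx4, Pknox1 and Pknox2 were followed at their own loci in chromatin of the E15.5 mouse kidney. A region belonged to a gene when a called peak overlapped the gene body or the 2 kb upstream of it in GENCODE M21 on mm10. By this rule the 8 genes held 125 of 159560 peaks in the Enl-WT library and 106 of 130027 peaks in the Enl-T1 library. Regions called in both libraries numbered 92 of 110706, and 16825 protein-coding genes had at least 1 such shared region.

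TALE proteins are transcription factors named for an extension in a loop of the homeodomain. Pbx proteins bind DNA together with Hox proteins and with a Meis or Prep partner, and Meis and Prep proteins (the Prep proteins are encoded by the Pknox genes) compete for the same surface of Pbx. Hox genes of paralogue groups 9 to 11 pattern the kidney mesenchyme, and Meis1 is a familiar marker of the kidney stroma.

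The 2 libraries came from single-nucleus ATAC-seq, which counts cuts of a transposase in open chromatin, of nuclei isolated from homogenized kidneys. Enl-WT embryos were Enl+/+ Wt1GFPCre/+. Enl-T1 embryos were Enl flox-T1/+ Wt1GFPCre/+ and carried, after Cre, 1 allele with the Wilms tumour insertion p.117_118insNHL in Enl, a reader of acetylated histones. Both groups carry the Wt1GFPCre knock-in, which inactivates 1 copy of Wt1. This Cre acts in the nephron and stroma lineages, and the ureteric epithelium and the endothelium were set beside them for comparison. Each group was 1 library, the number of embryos in each was not stated in the sources used here, and no test between groups was possible. All intervals below are exact 95% intervals of counting error alone, with 2 counts taken as 1 fragment.

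A nucleus was used when its barcode had between 2000 and 100000 counts in called peaks. This left 9472 Enl-WT and 12635 Enl-T1 nuclei, with medians of 14789.5 and 8753 counts. The paper also filtered on the share of fragments in peaks, the blacklist ratio and enrichment at start sites, which was not done here. It kept fewer nuclei of both libraries, and the gap was larger for Enl-T1. Of the kept nuclei, 149 barcode sequences occurred in both libraries. Nuclei were clustered without the regions of the 8 genes, and classes were named from markers. The nephron progenitor-like nuclei came from different clusters in each library. Of the 1632 Enl-WT nuclei in this class 1630 lay in cluster 2, whereas 2594 and 1319 of the 4011 Enl-T1 nuclei lay in clusters 0 and 4. In cluster 2 all 7 progenitor markers were raised, against 4 in cluster 0 and 6 in cluster 4. The mean log2 level of the markers over the median cluster was 1.40, 0.76 and 1.16 in clusters 2, 0 and 4. The next lineage reached 0.24, 0.41 and 0.50. The 10 leading genes of cluster 2 held the loop marker Umod and no progenitor marker. Clusters 0 and 4 held no progenitor marker among theirs either. Values for these nuclei are given for clusters 0, 2 and 4 together, with cluster values for each gene and for the regions the results turn on. In these nuclei the summed level of the 7 progenitor markers was 361 CPM (counts scaled to 1e+06 counts of the class) in Enl-WT and 269.8 CPM in Enl-T1, with 0 of 7 higher in Enl-T1, and that of 7 early nephron markers was 359 and 468 CPM, with 5 of 7 higher.

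The regions whose accessibility differed most between the libraries in progenitor-like nuclei lay in introns of Pbx3, Pknox2 and Meis1, and 7 of them are shown as the 300 bases at their centre. The region at Pbx3 +85.5 kb is not shown because its central window overlaps an annotated exon. Names give the distance of the region from the start of its gene, and sequences are the plus strand of GRCm38.p6 (mm10) from RefSeq. Capitals mark matches, on either strand, to TGACAG (the core bound by Meis and Prep), TGATTGAC (Pbx with Meis or Prep) or TGATNNAT (Pbx with Hox). TGACAG can overlap the end of TGATTGAC.
Pbx3 +139 kb: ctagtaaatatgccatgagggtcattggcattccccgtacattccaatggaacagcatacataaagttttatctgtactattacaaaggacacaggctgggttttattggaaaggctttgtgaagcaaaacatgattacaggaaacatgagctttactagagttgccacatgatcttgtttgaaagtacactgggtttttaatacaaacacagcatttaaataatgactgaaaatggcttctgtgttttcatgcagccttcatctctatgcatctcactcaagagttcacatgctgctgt
Pbx3 +137 kb: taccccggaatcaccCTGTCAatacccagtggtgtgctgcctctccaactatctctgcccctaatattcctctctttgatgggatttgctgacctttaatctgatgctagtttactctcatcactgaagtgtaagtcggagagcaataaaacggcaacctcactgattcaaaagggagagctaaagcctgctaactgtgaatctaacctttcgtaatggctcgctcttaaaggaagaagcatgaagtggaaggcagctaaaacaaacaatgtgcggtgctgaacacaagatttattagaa
Pbx3 +84.1 kb: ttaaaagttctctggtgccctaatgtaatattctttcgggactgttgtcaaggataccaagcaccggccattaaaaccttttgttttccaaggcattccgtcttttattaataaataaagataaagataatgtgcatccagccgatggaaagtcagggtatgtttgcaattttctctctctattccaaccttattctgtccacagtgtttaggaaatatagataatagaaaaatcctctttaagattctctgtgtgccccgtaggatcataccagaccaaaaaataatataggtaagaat
Pknox2 +45.9 kb: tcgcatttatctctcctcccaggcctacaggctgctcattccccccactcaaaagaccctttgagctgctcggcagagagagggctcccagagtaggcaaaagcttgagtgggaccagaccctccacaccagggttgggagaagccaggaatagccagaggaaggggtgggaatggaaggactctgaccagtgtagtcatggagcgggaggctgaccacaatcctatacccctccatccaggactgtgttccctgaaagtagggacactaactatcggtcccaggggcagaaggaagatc
Pknox2 +93.1 kb: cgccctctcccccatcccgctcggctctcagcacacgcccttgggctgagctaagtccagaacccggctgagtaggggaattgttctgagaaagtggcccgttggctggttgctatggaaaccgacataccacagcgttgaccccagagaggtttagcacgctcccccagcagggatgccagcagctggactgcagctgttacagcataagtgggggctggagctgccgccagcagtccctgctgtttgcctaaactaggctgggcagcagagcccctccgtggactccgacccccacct
Pknox2 +134 kb: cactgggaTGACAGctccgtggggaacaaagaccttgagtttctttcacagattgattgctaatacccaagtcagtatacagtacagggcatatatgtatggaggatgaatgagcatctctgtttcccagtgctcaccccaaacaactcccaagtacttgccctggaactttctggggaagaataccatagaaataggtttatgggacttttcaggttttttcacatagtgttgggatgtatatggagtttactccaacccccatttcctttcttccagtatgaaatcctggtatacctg
Meis1 +55.3 kb: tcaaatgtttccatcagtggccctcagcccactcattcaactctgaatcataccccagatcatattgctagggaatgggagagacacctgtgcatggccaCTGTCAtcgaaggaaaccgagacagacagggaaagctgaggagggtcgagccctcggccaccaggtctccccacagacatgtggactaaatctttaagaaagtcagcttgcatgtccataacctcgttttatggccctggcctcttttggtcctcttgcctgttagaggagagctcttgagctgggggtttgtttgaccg

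The first 3 windows, chr2:34234120-34234419, chr2:34235683-34235982 and chr2:34288889-34289188, lie in intron 2 of Pbx3, and the regions around them were the more accessible in Enl-T1. The windows of Pknox2, chr9:37101338-37101637 in intron 1 and chr9:37054154-37054453 and chr9:37013296-37013595 in intron 2, and that of Meis1, chr11:18963575-18963874 in intron 7, come from regions more accessible in Enl-WT. Of these 7 windows, the Pbx3 window at +137 kb, the Pknox2 window at +134 kb and the Meis1 window held 1 match each, always to TGACAG, and the other 4 windows held none. Across the 92 member regions, 26 windows (28.3%) held TGACAG against 22.5% of 110665 windows of the same length at all shared regions. TGATNNAT was found in 8 of the 92 windows (8.70%) against 13.0%, and TGATTGAC in 0 of 92 against 0.682%. Median GC share was 43.3% in the windows of the 15 member regions higher in Enl-T1 in progenitor-like nuclei, 49.2% in the 12 lower and 51.0% in the 45 between, and over all regions tested there it was 47.0%, 50.7% and 53.0%.

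Levels are given for each gene as CPM summed over its shared regions, with the counts of the class in all shared regions as the total. Per kb of called peak in Enl-WT, the order over all nuclei was Pbx4 (50.9 CPM per kb), Pbx2 (45.3), Pknox1 (29.5), Meis3 (11.7), Meis2 (9.81), Meis1 (9.14), Pbx3 (8.40) and Pknox2 (6.96). The genes at the top of that order had 1 to 3 shared regions, mostly at a start site, while Pknox2 had 37 regions over 256 kb, Meis2 20 over 203 kb, Meis1 15 over 139 kb and Pbx3 13 over 202 kb.

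**Figure D1:**
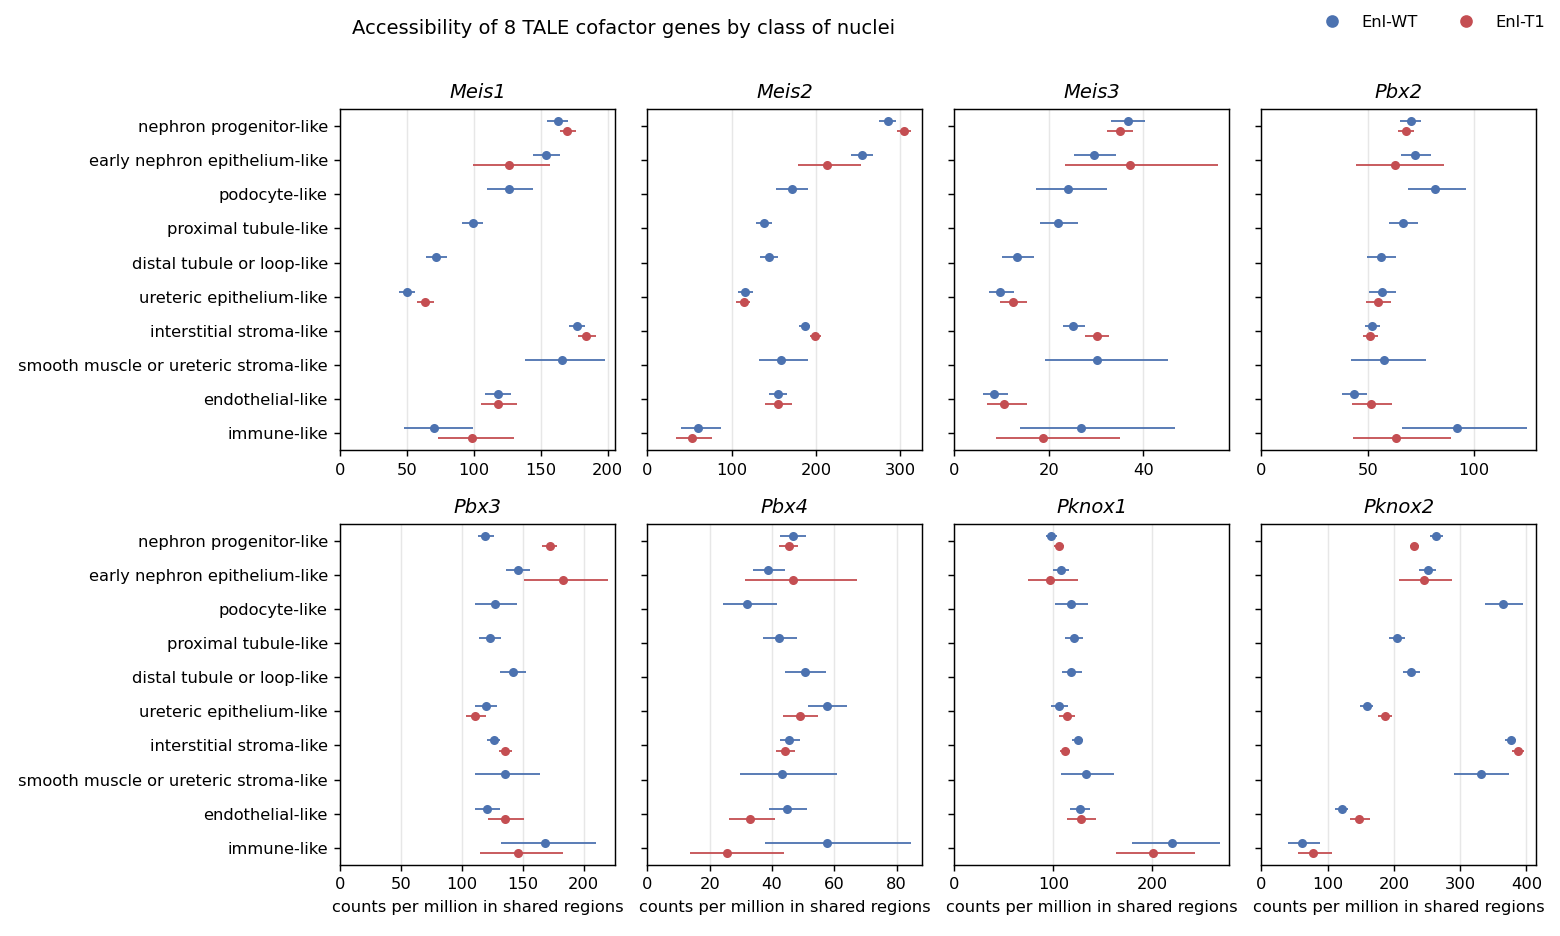
CPM in the shared regions of each gene (x axis, linear) by marker-named class of nuclei (y axis), with Enl-WT in blue and Enl-T1 in red. Bars are 95% intervals of counting error, only classes with at least 100 nuclei in a library are drawn, and the Pbx3 points of the progenitor-like nuclei lie at 119 and 172 CPM with intervals that do not meet.

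Pbx2 (ENSMUSG00000034673.14, chr17:34591266-34597400, plus strand), a broadly expressed member of the family, had 1 shared region, which covers its start site and also lies in the window of the neighbouring gene Gpsm3, so its counts cannot be assigned to Pbx2 alone. Its level in Enl-WT ran from 43.6 CPM in endothelial-like to 92.2 CPM in immune-like nuclei, and was 70.2 CPM (65.4 to 75.3) in progenitor-like nuclei. The Enl-T1 value there was 68.0 CPM (64.3 to 71.8), which is -0.05 as a log2 ratio of Enl-T1 over Enl-WT (-0.18 to 0.08). Clusters 0 and 4 gave 70.5 and 63.1 CPM against 70.0 CPM in cluster 2. The ratios of the stroma-like and ureteric epithelium-like nuclei were -0.03 and -0.05. In endothelial-like nuclei it was 0.24 (-0.09 to 0.56), and the intervals of all 4 classes included 0.

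Pbx4 (ENSMUSG00000031860.17, chr8:69832491-69872292, plus strand), which is best known from the testis, also had a single shared region at its start site. Progenitor-like nuclei gave 46.6 CPM (42.7 to 50.8) in Enl-WT and 45.4 CPM (42.4 to 48.5) in Enl-T1, of which cluster 0 gave 45.3 and cluster 4 gave 45.7 CPM. Its lowest Enl-WT level was 32.1 CPM (24.3 to 41.6) in podocyte-like nuclei, and its highest were 57.8 CPM (37.7 to 84.7) in immune-like and 57.6 CPM (51.5 to 64.2) in ureteric epithelium-like nuclei, which did not differ beyond counting error. Endothelial-like nuclei gave 44.8 and 33.0 CPM in the Enl-WT and Enl-T1 libraries (-0.44, -0.84 to -0.08) from 443 and 161 counts. Immune-like nuclei gave 57.8 and 25.7 CPM (-1.17, -2.25 to -0.16), from 52 and 26 counts only. Within the stroma, cluster 3 alone gave 62.4 and 45.8 CPM (log2 ratio -0.45, -0.75 to -0.13), while cluster 1 gave 40.5 and 37.1 CPM and cluster 5 gave 43.6 and 44.4 CPM.

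Pbx3 (ENSMUSG00000038718.15, chr2:34171457-34373142, minus strand), a partner of Hox proteins known from the nervous system and from leukaemia, was the gene of the 8 with the largest ratio in progenitor-like nuclei. Its level there was 119 CPM (113 to 126, 2694 counts) in the Enl-WT library. The Enl-T1 library gave 172 CPM (166 to 178, 6419 counts), 1.44-fold higher, or 0.53 on the log2 scale (0.44 to 0.62). That ratio was above those of 97.6% of the 16231 genes tested in these nuclei. Cluster by cluster, the Enl-T1 level was 177 CPM in cluster 0 and 162 CPM in cluster 4 against 119 CPM in cluster 2 of Enl-WT, with log2 ratios of 0.57 (0.47 to 0.67) and 0.44 (0.33 to 0.56). In Enl-WT the progenitor level was at the low end of a narrow range: ureteric epithelium-like 119.6 CPM, endothelial-like 120.5 CPM, proximal tubule-like 123 CPM, interstitial stroma-like 126 CPM, podocyte-like 127 CPM, smooth muscle-like 135 CPM, distal tubule-like 142 CPM, early nephron-like 146 CPM and immune-like 168 CPM. Neighbours in that order overlapped in their intervals. The distal tubule-like (131 to 153), early nephron-like (136 to 156) and immune-like (132 to 210.2) intervals lay above that of progenitor-like nuclei. The ratio lay at or under 0.50 in 9 of 15 alternatives, and was lowest, at 0.38, with peaks matched 1 to 1 or with start site regions alone.

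The other lineages showed smaller Pbx3 ratios. Stroma-like nuclei gave 126 CPM (121 to 131) and 135 CPM (129.8 to 141), a log2 ratio of 0.10 (0.02 to 0.18). Endothelial-like nuclei gave 120.5 and 135 CPM (0.17, -0.03 to 0.36), and ureteric epithelium-like nuclei 119.6 and 111 CPM (-0.10, -0.26 to 0.05). The interval of the progenitor-like ratio did not overlap those of the other 3 classes. Early nephron-like nuclei, of which Enl-T1 had 134, gave 146 and 183 CPM (0.33, 0.04 to 0.62).

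**Figure D2:**
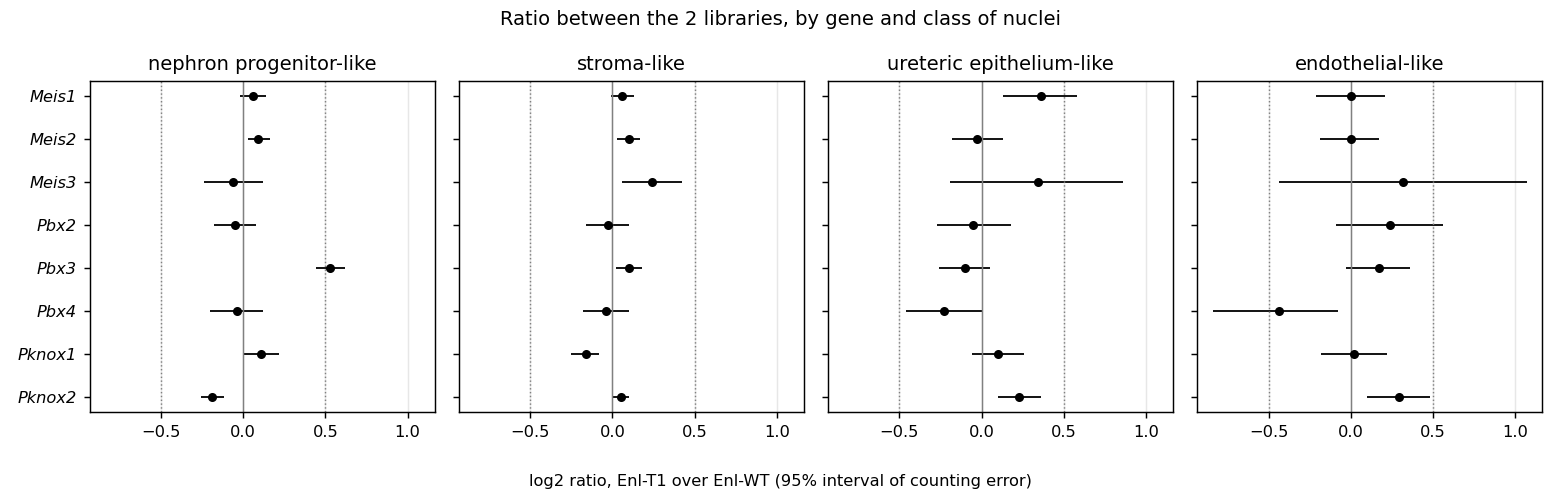
Log2 ratio of Enl-T1 over Enl-WT (x axis) for each of the 8 genes (y axis) in 4 classes of nuclei. Points are single ratios between 1 library each, bars are 95% intervals of counting error, the dotted lines mark a log2 ratio of 0.5 in either direction, and only the Pbx3 point in progenitor-like nuclei (0.53) lies past one.

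The Pbx3 difference was unequal along the gene. The region at the gene start, the most counted of the locus, gave 67.5 and 70.1 CPM in Enl-WT and Enl-T1 progenitor-like nuclei (log2 ratio 0.06, -0.07 to 0.19). The other 12 regions together gave 51.5 and 101 CPM (0.98, 0.84 to 1.11). For those 12 regions the log2 ratio was 0.56 (0.22 to 0.89) in endothelial-like nuclei, from 363 and 264 counts, 0.27 (0.15 to 0.39) in the stroma-like class and -0.12 (-0.37 to 0.12) in the ureteric epithelium-like class.

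At +139 kb (chr2:34233846-34234693) progenitor-like nuclei gave 1.46 CPM from 33 counts in Enl-WT and 8.66 CPM from 324 counts in Enl-T1 (2.57, 1.87 to 3.46). Its neighbour at +137 kb (chr2:34235370-34236295) gave 3.98 and 13.6 CPM (1.77, 1.31 to 2.26). At +85.5 kb (chr2:34287111-34288190) the levels were 3.22 and 10.9 CPM (1.75, 1.26 to 2.33), and at +84.1 kb (chr2:34288427-34289650), at the start site of a shorter annotated transcript, 4.02 and 12.1 CPM (1.59, 1.11 to 2.06). At +5.3 kb they were 11.2 and 19.0 CPM (0.76, 0.46 to 1.06) and at +120.2 kb 4.28 and 8.05 CPM (0.91, 0.44 to 1.42). Clusters 0 and 4 gave ratios of 0.70 and 0.85 at +5.3 kb, and of 1.06 and 0.66 at +120.2 kb. The first 4 of these regions had the 4 highest ratios among all member regions tested in progenitor-like nuclei. Each of the 4 was higher in both Enl-T1 clusters, with 8.71 CPM in cluster 0 and 8.53 CPM in cluster 4 at +139 kb, 16.4 and 9.16 CPM at +137 kb, 11.6 and 9.95 CPM at +85.5 kb, and 12.8 and 11.1 CPM at +84.1 kb. The called peaks were of like width in both libraries at +139 kb (805 and 848 bases) and +137 kb (866 and 926 bases), and narrower in Enl-T1 at +85.5 kb (1080 and 770 bases). They were also narrower in Enl-T1 at +84.1 kb (1219 and 1092 bases) and +120.2 kb (2250 and 1936 bases). At +5.3 kb they were wider in Enl-T1 (1845 and 2405 bases), and the part of width in that ratio was not tested.

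The intronic regions had their own patterns over the cell classes of Enl-WT. The pair at +84.1 and +85.5 kb was most open in distal tubule-like nuclei (7.71 and 13.8 CPM) and early nephron-like nuclei (5.62 and 9.59 CPM), and was near 1 CPM in interstitial stroma-like nuclei (1.36 and 1.02 CPM). The Enl-T1 progenitor-like level at +85.5 kb, 10.9 CPM (9.44 to 12.5), overlapped in its interval that of Enl-WT early nephron-like nuclei (7.23 to 12.5). At +84.1 kb it was 12.1 CPM (10.6 to 13.8), above the interval of Enl-WT early nephron-like nuclei (3.85 to 7.91). The part of the early nephron markers in these ratios was not tested. The region at +139 kb was low in each Enl-WT nephron, ureteric and stromal class, between 0.864 CPM in early nephron-like and 2.63 CPM in interstitial stroma-like nuclei. At +137 kb, Enl-WT early nephron-like nuclei gave 4.58 CPM from 53 counts, with an upper limit of 6.69 CPM. Those of Enl-T1 gave 11.3 CPM (4.54 to 23.3) from only 14 counts, and the intervals overlapped. At +139 kb the Enl-T1 early nephron-like nuclei had 0 counts (0 to 5.95 CPM).

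**Figure D3:**
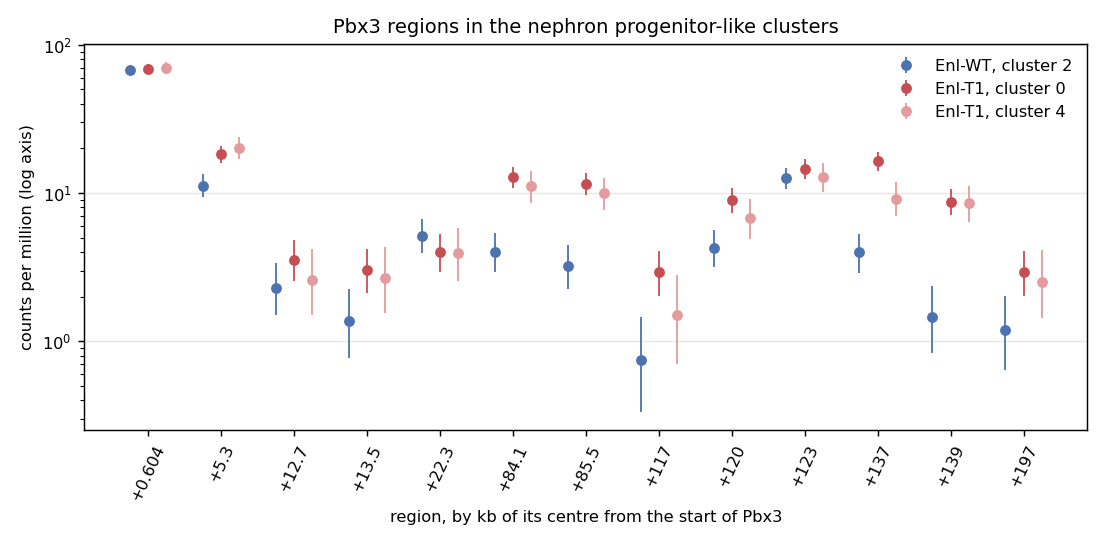
CPM (y axis, log axis) at each of the 13 shared Pbx3 regions (x axis, kb from the gene start) in the Enl-WT progenitor-like cluster 2 and the Enl-T1 progenitor-like clusters 0 and 4, with 95% intervals of counting error. The 3 clusters coincide at the gene start (67.6, 69.1 and 70.2 CPM) and at +123 kb (12.6, 14.6 and 12.9 CPM) and separate at +84.1, +85.5, +137 and +139 kb.

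Not every intronic region of Pbx3 followed. The most counted one beyond 2 kb of a start site, at +123 kb, gave 12.5 and 14.1 CPM in progenitor-like nuclei (0.16, -0.14 to 0.47), and that at +22.3 kb gave 5.17 and 3.90 CPM (-0.41, -0.91 to 0.13). In clusters 0 and 4 the ratios were 0.22 and 0.04 at +123 kb, and -0.36 and -0.39 at +22.3 kb. In stroma-like nuclei the higher Pbx3 regions were at +117 kb, with 6.81 and 11.2 CPM (0.71, 0.38 to 1.05), and at +137 kb, with 4.15 and 6.79 CPM (0.71, 0.29 to 1.15). Clusters 9 and 12 of the stroma held 1029 and 910 Enl-T1 nuclei but 0 and 13 Enl-WT nuclei, and without them these ratios were 0.33 (-0.06 to 0.73) and 0.24 (-0.30 to 0.75). The stroma-like ratio at +5.3 kb did not fall in this way. It was 0.46 (0.16 to 0.77, 8.68 and 11.9 CPM) in the whole class and 0.60 (0.27 to 0.93) without those clusters. The called peak at +5.3 kb measured 1845 bases in Enl-WT and 2405 in Enl-T1. The part of width in these stroma-like ratios was not tested.

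Meis1 (ENSMUSG00000020160.18, chr11:18879817-19018985, minus strand), which binds DNA with Pbx and Hox proteins, was most open in stroma-like nuclei. Enl-WT levels ran, from high to low, through interstitial stroma-like (177 CPM, 171 to 183), smooth muscle-like (166 CPM), progenitor-like (163 CPM, 155 to 170.4), early nephron-like (154 CPM), podocyte-like (126 CPM), endothelial-like (118 CPM), proximal tubule-like (98.9 CPM), distal tubule-like (71.7 CPM), immune-like (70.0 CPM) and ureteric epithelium-like nuclei (49.5 CPM). The progenitor-like and early nephron-like levels overlapped in their intervals, as did the podocyte-like and endothelial-like levels. Between libraries the gene gave 163 and 169.8 CPM in progenitor-like nuclei (log2 ratio 0.06, -0.02 to 0.14) and 176 and 184 CPM in stroma-like nuclei (0.06, -0.01 to 0.13). Cluster 0 gave 171 CPM (0.07, -0.02 to 0.16) and cluster 4 gave 167 CPM (0.04, -0.07 to 0.15). With the peaks called in 1 library only added, these ratios became -0.14 (-0.22 to -0.06) and -0.12 (-0.18 to -0.05). The ureteric epithelium-like class gave 49.5 CPM (43.9 to 55.7) and 63.5 CPM (57.5 to 70.0), a ratio of 0.36 (0.13 to 0.58), which became 0.01 (-0.20 to 0.21) with those peaks. The start site region alone gave 6.88 and 10.9 CPM in that class (0.66, 0.09 to 1.27).

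The near-equal sum of Meis1 in progenitor-like nuclei held regions that went opposite ways. Its 5 regions within 2 kb of a start site gave 95.2 and 111 CPM (0.22, 0.11 to 0.33) and its 10 other regions 67.6 and 58.9 CPM (-0.20, -0.33 to -0.06). At +55.3 kb (chr11:18963312-18964137, intron 7) the levels were 16.5 and 6.39 CPM (-1.37, -1.71 to -1.03), with 3.98 CPM in cluster 0 and 9.95 CPM in cluster 4. No other Enl-WT class exceeded 4.66 CPM there. At +61.0 kb the levels were 10.5 and 5.21 CPM (-1.01, -1.41 to -0.61), and at +5.76 kb, 6.32 and 11.9 CPM (0.92, 0.52 to 1.32). The ratio in cluster 0 was -2.05 at +55.3 kb, -1.36 at +61.0 kb and 1.07 at +5.76 kb, further from 0 than in cluster 4 (-0.73, -0.74 and 0.55). The start site region itself gave 24.4 and 28.9 CPM (0.24, 0.03 to 0.46), and the most counted distal one, at +133 kb over a coding exon, 14.4 and 17.5 CPM (0.29, 0.02 to 0.57). By cluster these ratios were 0.31 (0.08 to 0.54) in cluster 0 and 0.14 (-0.15 to 0.42) in cluster 4 at the start site, and 0.28 in both at +133 kb. The called peak at +133 kb was wider in Enl-T1 (1121 bases) than in Enl-WT (886 bases), and the part of width in its ratio was not tested. In stroma-like nuclei the lowest Meis1 ratio was at +135 kb, with 13.1 and 8.92 CPM (-0.56, -0.85 to -0.26), where progenitor-like nuclei gave 4.86 and 7.32 CPM (0.59, 0.13 to 1.07). The stroma-like ratio there was -0.31 (-0.64 to 0.01) without clusters 9 and 12, and the progenitor-like ratio was 0.70 in cluster 0 and 0.40 (-0.25 to 0.99) in cluster 4.

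Meis2 (ENSMUSG00000027210.20, chr2:115863064-116065839, minus strand), a close relative of Meis1, was most open in progenitor-like nuclei, with 285 CPM (275 to 295) in Enl-WT and 304 CPM (296 to 312) in Enl-T1 (log2 ratio 0.09, 0.03 to 0.16). Cluster 0 gave 297 CPM (0.06, -0.01 to 0.13) and cluster 4 gave 318 CPM (0.16, 0.08 to 0.24). Below them in Enl-WT came early nephron-like (254 CPM, 242 to 268), interstitial stroma-like (187 CPM), podocyte-like (171 CPM), smooth muscle-like (159 CPM), endothelial-like (155 CPM), distal tubule-like (144 CPM), proximal tubule-like (138 CPM), ureteric epithelium-like (116 CPM) and, lowest of all, immune-like nuclei (39.5 to 87.3). The levels from podocyte-like to endothelial-like nuclei overlapped in their intervals. Stroma-like nuclei gave 185 and 198 CPM (0.10, 0.03 to 0.17), and without clusters 9 and 12, which hold almost no Enl-WT nuclei, that ratio was -0.01 (-0.09 to 0.07).

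Among Meis2 regions, that at +123 kb was the highest ratio in progenitor-like nuclei, with 7.95 and 16.7 CPM (1.07, 0.73 to 1.42), followed by +85.8 kb with 5.52 and 10.8 CPM (0.97, 0.56 to 1.41). Both Enl-T1 clusters were high at +123 kb (1.15 and 0.97), whereas at +85.8 kb cluster 0 gave 12.5 CPM (1.18, 0.76 to 1.65) and cluster 4 gave 7.27 CPM (0.40, -0.18 to 0.98). The lowest was at +18.4 kb, within 2 kb of an inner start site, with 7.16 and 3.85 CPM (-0.89, -1.37 to -0.42), and the same region was the lowest of all member regions in stroma-like nuclei (13.1 and 8.01 CPM, -0.71, -1.03 to -0.41), with a ratio of -0.71 (-1.07 to -0.35) there without clusters 9 and 12. At +55.1 kb the classes went opposite ways, with 6.58 and 4.06 CPM in progenitor-like nuclei (-0.70, -1.17 to -0.20) and 2.20 and 3.71 CPM in stroma-like nuclei (0.76, 0.19 to 1.38), or 0.42 (-0.32 to 1.11) without clusters 9 and 12. In progenitor-like nuclei clusters 0 and 4 gave -0.97 and -0.77 at +18.4 kb, and -0.70 and -0.71 at +55.1 kb. The start site region differed little, with 35.0 and 34.0 CPM in progenitor-like nuclei (-0.04, -0.22 to 0.14). The most counted distal region, at +170.2 kb, gave 29.4 and 26.2 CPM (-0.17, -0.37 to 0.04). Ratios of clusters 0 and 4 were -0.08 and 0.07 at the start site, and -0.11 and -0.21 at +170.2 kb.

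Meis3 (ENSMUSG00000041420.18, chr7:16175090-16186504, plus strand), known from patterning of the hindbrain, had 2 shared regions and the lowest counts of the group. Progenitor-like nuclei gave 36.7 CPM (33.2 to 40.4) and 35.1 CPM (32.4 to 37.9), with a log2 ratio of -0.06 (-0.24 to 0.12), from 34.9 CPM in cluster 0 and 34.5 CPM in cluster 4. Stroma-like nuclei gave 25.4 CPM (23.2 to 27.8) and 30.1 CPM (27.6 to 32.7), a ratio of 0.24 (0.06 to 0.42), but matching peaks of the libraries 1 to 1 at 80% overlap turned it to -0.34 (-0.83 to 0.15), because the start site peak measured 1123 bases in Enl-WT and 872 in Enl-T1 and found no match. Its Enl-WT levels were lowest in endothelial-like (8.40 CPM) and ureteric epithelium-like nuclei (9.70 CPM), which did not differ beyond counting error.

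Pknox1 (ENSMUSG00000006705.13, chr17:31564734-31607693, plus strand) encodes Prep1, a widely expressed partner of Pbx. It lay between 98.0 CPM in progenitor-like and 133 CPM in smooth muscle-like nuclei of Enl-WT, apart from immune-like nuclei at 220.0 CPM (179 to 268), which were also the highest in Enl-T1 at 200.4 CPM (163 to 243). Nearly all of its counts fell at the start site, 91.7 of 98.0 CPM in Enl-WT progenitor-like nuclei. That region gave 91.7 and 98.8 CPM in progenitor-like nuclei (0.11, 0.00 to 0.22) and 118 and 105 CPM in stroma-like nuclei, and the whole gene gave log2 ratios of 0.11 (0.00 to 0.22) and -0.16 (-0.25 to -0.08). In cluster 0 the gene gave 109 CPM (0.16, 0.04 to 0.27), and in cluster 4 it gave 99.3 CPM (0.02, -0.13 to 0.16). The start site peak measured 1556 bases in Enl-WT and 1696 in Enl-T1, and with all counts taken per base of called peak the progenitor ratio was -0.15 (-0.26 to -0.04).

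Pknox2 (ENSMUSG00000035934.16, chr9:36890982-37147407, minus strand) encodes Prep2, a relative of Prep1 with more restricted expression, and had the most regions of the 8 genes. Enl-WT levels were 376 CPM (367 to 385) in interstitial stroma-like, 365 CPM (338 to 395) in podocyte-like, 331 CPM (291 to 374) in smooth muscle-like, 264 CPM (255 to 274) in progenitor-like, 251 CPM (238 to 264) in early nephron-like, 226 CPM in distal tubule-like, 204 CPM in proximal tubule-like, 159 CPM in ureteric epithelium-like, 121 CPM in endothelial-like and 61.1 CPM in immune-like nuclei. The 3 highest classes overlapped in their intervals, as did progenitor-like and early nephron-like nuclei. Enl-T1 progenitor-like nuclei gave 231 CPM (224 to 238), a log2 ratio of -0.19 (-0.26 to -0.12), with 232 CPM in cluster 0 and 228 CPM in cluster 4. Endothelial-like nuclei gave 121 and 148 CPM (0.29, 0.10 to 0.48), the ureteric epithelium-like class 159 and 186 CPM (0.23, 0.10 to 0.36) and the stroma-like class 374 and 387 CPM (0.05, 0.00 to 0.10). With single-library peaks added the ureteric epithelium-like ratio turned to -0.08 (-0.20 to 0.03).

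In progenitor-like nuclei the 5 Pknox2 regions within 2 kb of a start site gave 77.7 and 78.9 CPM (0.02, -0.10 to 0.15), whereas the 32 regions beyond gave 186 and 152 CPM (-0.29, -0.37 to -0.21). The lowest ratio of all member regions was at +45.9 kb (chr9:37101014-37101960, intron 1), with intervals of 9.11 to 13.1 CPM in Enl-WT (248 counts) and 2.47 to 4.16 CPM in Enl-T1 (121 counts) and a log2 ratio of -1.76 (-2.24 to -1.32). At +93.1 kb (chr9:37053887-37054719, intron 2), the most counted distal region of the gene, the levels were 10.2 and 3.93 CPM (-1.37, -1.80 to -0.93), and at +134 kb (chr9:37012606-37014284) 7.46 and 3.53 CPM (-1.08, -1.56 to -0.59), where the peaks measured 1679 and 985 bases. Both Enl-T1 clusters were low at +45.9 kb (3.10 and 3.71 CPM) and at +93.1 kb (3.81 and 3.71 CPM). Opposite to these, +136 kb gave 3.58 and 5.85 CPM (0.71, 0.20 to 1.29). Clusters 0 and 4 gave -1.31 and -0.92 at +134 kb, and 0.51 (-0.07 to 1.14) and 1.07 (0.46 to 1.74) at +136 kb.

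The Pknox2 regions at +45.9 and +93.1 kb were open in stroma-like nuclei of both libraries, with 18.4 and 16.9 CPM at +45.9 kb (-0.13) and 38.0 and 35.5 CPM at +93.1 kb (-0.10). Podocyte-like nuclei of Enl-WT gave 51.3 CPM at +93.1 kb. The summed level of the 8 interstitial stroma markers in progenitor-like nuclei was 152 CPM in Enl-WT and 132 CPM in Enl-T1, with 5 of 8 higher in Enl-T1, and that of the 7 podocyte markers was 451 and 410.1 CPM, with 1 of 7 higher. Their part in the Pknox2 ratios was not tested. In stroma-like nuclei the highest ratio of any member region was at Pknox2 +136 kb, with 4.53 and 8.87 CPM (0.97, 0.57 to 1.36), and the lowest of this gene were at +241 kb (4.18 and 2.58 CPM, -0.70, -1.27 to -0.17) and +40.3 kb (7.37 and 5.15 CPM, -0.52, -0.91 to -0.13). Without clusters 9 and 12 the ratio at +136 kb was 0.85 (0.41 to 1.30), and those at +241 kb (-0.42, -1.04 to 0.18) and +40.3 kb (-0.26, -0.70 to 0.17) had intervals that included 0.

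**Figure D4:**
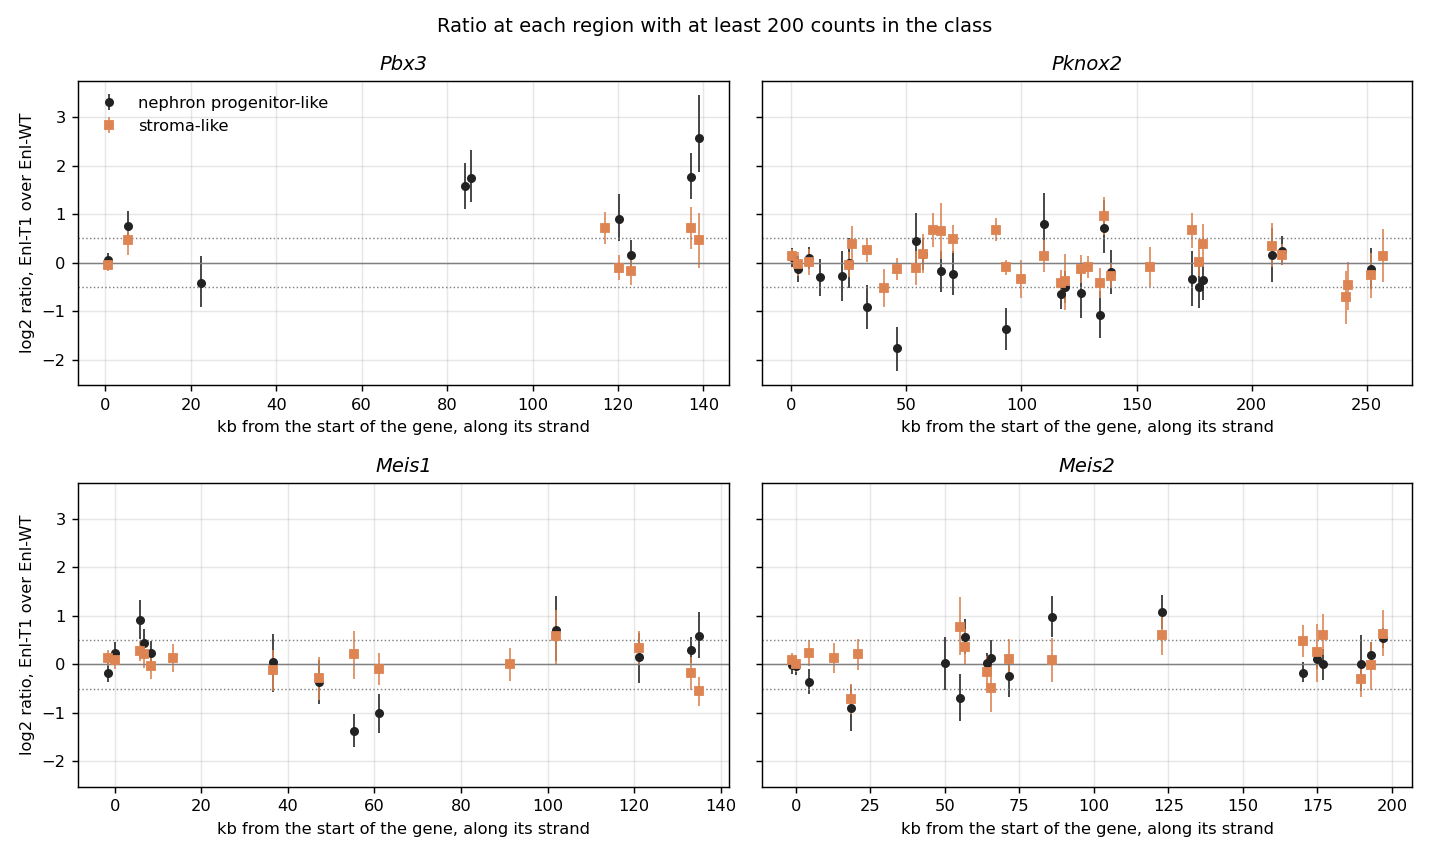
Log2 ratio of Enl-T1 over Enl-WT (y axis) at the shared regions of Pbx3, Pknox2, Meis1 and Meis2 by distance from the gene start in kb (x axis), in progenitor-like (black circles) and stroma-like nuclei (orange squares), where a region had 200 or more counts. Bars are 95% intervals of counting error, dotted lines mark 0.5 in either direction, and the progenitor points range from -1.76 in Pknox2 to 2.57 in Pbx3.

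Over the members with at least 200 counts, the median log2 ratio was 0.01 in progenitor-like nuclei (8 genes) and 0.02 in endothelial-like nuclei (7 genes, without Meis3), beside medians over all genes tested of 0.01 and -0.02. It was 0.05 over the 8 genes for the stroma-like class (all genes -0.01) and 0.04 for the ureteric epithelium-like class (all genes -0.02). A gene or region is counted here as different when its log2 ratio was 0.5 or more in either direction, from at least 200 counts. In progenitor-like nuclei 1 of 8 genes (Pbx3) was higher and 0 lower, beside 2.70% and 3.65% of 16231 genes. No member tested passed that fold in the other classes (8 genes, or 7 in the endothelial-like class), where the shares of all genes higher and lower were 1.97% and 1.73% in the endothelial-like class, 1.59% and 1.28% in the stroma-like class and 1.35% and 0.995% in the ureteric epithelium-like class.

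Of 92 member regions, 72 had enough counts in progenitor-like nuclei, and 15 were higher and 12 lower in Enl-T1, beside 14.6% and 15.6% of all 70169 regions tested. The 15 higher regions came from Pbx3 (6 of 9 tested), Meis2 (4 of 18), Meis1 (3 of 13) and Pknox2 (2 of 26), and the 12 lower from Pknox2 (8), Meis1 (2) and Meis2 (2). In stroma-like nuclei 12 of 81 were higher and 4 lower, beside 9.84% and 8.09% of all regions. Without clusters 9 and 12 they numbered 4 higher and 4 lower of 74. The shares of all regions just given are for the whole class, and none is given for the class without those clusters. Among ureteric epithelium-like nuclei 1 of 16 was higher and 0 lower (5.13% and 4.0% of all), and among endothelial-like nuclei 0 of 11 were higher and 1 lower (2.39% and 7.77%). Of 66 regions tested in both progenitor-like and stroma-like nuclei, 5 were higher in both, 1 was lower in both and 2 went opposite ways. No share over all regions tested in both classes is given beside these counts, so they are not read as a trait of the 8 genes.

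Peaks called in a single library made up 32 of 125 member peaks in Enl-WT (25.6%), beside 47872 of all 159560 peaks, and 12 of 106 in Enl-T1 (11.3%), beside 17478 of 130027. Unless stated, they stayed out of the values above. By gene they numbered 12 and 3 at Pknox2 (Enl-WT first), 9 and 1 at Meis1, 7 and 4 at Meis2, and 4 and 3 at Pbx3. Pbx4 had 1 such peak, in Enl-T1.

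The other TALE homeobox genes were read in the same way. Of 8 (Tgif1, Tgif2 and Irx1 to Irx6), 0 passed the fold in progenitor-like nuclei, with a median of 0.12, and the highest ratios were those of Irx3 (15.7 and 22.1 CPM, 0.49, 0.23 to 0.75) and Tgif1 (55.2 and 65.6 CPM, 0.25), the lowest those of Tgif2 (-0.10, -0.22 to 0.01) and Irx4 (0.06). Of 10 Hox genes of groups 9 to 11, 9 had enough counts. Hoxb9 was higher (45.8 and 66.7 CPM, 0.54, 0.39 to 0.69) and Hoxd10 lower (24.8 and 16.7 CPM, -0.57, -0.81 to -0.33), with a median of 0.02. Next to them were Hoxc10 (46.1 and 63.2 CPM, 0.46) and Hoxd9 (53.0 and 44.1 CPM, -0.27). In stroma-like nuclei 0 of either list passed the fold, with medians of -0.03 and 0.00.

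Over the 16 levels given by class and library, the patterns of Meis1 and Meis2 (Spearman's rho 0.82) and of Meis1 and Pknox2 (0.80) were alike. Pbx3 was like none of the other 7 genes (rho between -0.11 and 0.43), but this was not particular to it. The same held for Pbx2 (-0.13 to 0.47), Pbx4 (-0.37 to 0.03) and Pknox1 (-0.65 to 0.06). The genes beyond 1 Mb most like each member were Hoxc5 for Meis1 (0.96), Cdh2 for Meis2 (0.96), Gpr162 for Meis3 (0.90), Kremen1 for Pbx2 (0.89), Lipo3 for Pbx3 (0.83), Dnmt3l for Pbx4 (0.79), Atm for Pknox1 (0.96) and Adcy2 for Pknox2 (0.98). After them came Svep1 and Shisa3 for Meis1 (both 0.94), Asic2 and 1700113H08Rik for Meis2 (both 0.96), Nostrin and Col19a1 for Meis3 (both 0.88), and Fam181a (0.89) and Cox14 (0.88) for Pbx2. The others were Engase (0.81) and Cplane1 (0.79) for Pbx3, Rab15 (0.79) and Upk3bl (0.78) for Pbx4, Pfkfb4 (0.96) and Elmod2 (0.95) for Pknox1, and Rxrg (0.98) and Kank4 (0.97) for Pknox2. These are descriptions over levels that share libraries and depth, chosen as the highest of 16706 genes.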

How the data were processed

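The authors aligned and counted the reads with Cell Ranger ATAC 2.1.0 on mm10 and deposited, for each library, called peaks and raw counts of transposase cut sites per peak and barcode. Peaks were called per library. Nuclei had 2000 to 100000 counts. Peaks of the libraries that overlapped were joined into 110706 shared regions, and counts were summed. Nuclei were clustered on latent semantic components 2 to 30 (15 neighbours, Leiden resolution 1, leidenalg 0.10.2), without the 92 member regions, and named by the mean log2 level of 6 to 8 markers. Clusters whose leading genes held more markers of another lineage than of their own were left unnamed, and since progenitor and loop markers count as 1 nephron lineage, cluster 2 kept its name. Doublets stayed in, and 718 and 1277 doublet-like nuclei were removed as an alternative.

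Counts were summed over nuclei per class and library and scaled to CPM. Log2 ratios carry exact binomial intervals, and levels exact Poisson intervals. With 1 library per group no test was made. Peak sets, scaling, depth, clustering, count minimum and fold were varied as alternatives. Ratio code was tested on simulated data. All 8 genes were named. Regions were named by rule (at each start site, the most counted beyond 2 kb, and the 4 highest and 4 lowest ratios in progenitor-like and stroma-like nuclei), and others were chosen after their values were seen. The 2 highest and 2 lowest of each context list and the 3 genes of most similar pattern were also named. The members and lists were chosen with earlier results of these data known. Sequences came from RefSeq's GRCm38.p6.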

Additional observations from a re-analysis of the deposited data

Results flagged for a closer look

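Pknox2 differed in direction between classes of nuclei: its log2 ratio of Enl-T1 over Enl-WT was -0.19 (-0.26 to -0.12) in nephron progenitor-like nuclei but 0.29 (0.10 to 0.48) in endothelial-like nuclei and 0.23 (0.10 to 0.36) in the ureteric epithelium-like class. The intervals cover counting error alone, and the difference between classes was not tested. Over regions within 2 kb of a start site the progenitor-like ratio was 0.02 (-0.10 to 0.15), and with all peaks of each library the ureteric epithelium-like ratio was -0.08 (-0.20 to 0.03).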

How the results depend on the processing

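No paired analysis was possible because each group was 1 library, and no replicate could be left out. The depth limits calls in small classes: endothelial-like nuclei left 11 of 92 regions to read. Pbx3 in progenitor-like nuclei stayed above 0 under all alternatives, at 0.62 with all peaks, 0.38 with 1 to 1 matched peaks, 0.38 with start site regions and 0.64 with nuclei thinned to 2000 counts and between 0.44 and 0.57 under the others. Pknox2 there reversed to 0.02 with start site regions. Other reversals were Pbx4 (0.07) and Pknox2 (-0.08) in ureteric epithelium-like nuclei with all peaks, Meis3 (-0.34) and Pknox2 (-0.02) in stroma-like nuclei with matched peaks, Pknox2 (-0.01) with components 2 to 15, Meis2 (-0.01) without clusters 9 and 12, and Pknox1 in progenitor-like nuclei (-0.15) per base of peak. Of 440 single-gene values under alternatives, 404 stayed within the interval of the reported value, 8 reversed as above and 28 lay outside it, among them Meis1 with all peaks (-0.14 in progenitor-like and -0.12 in stroma-like nuclei). Class medians moved to -0.04 in stroma-like nuclei with matched peaks and to -0.12 in progenitor-like nuclei per base of peak.

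Counts of member regions moved by over 1.5 times mainly where fewer regions were tested. Shares over all regions are not given for these alternatives, so the counts describe the members alone. In progenitor-like nuclei, higher and lower regions numbered 5 and 1 at start sites, 2 and 0 with thinned nuclei, 9 and 4 at a minimum of 400 counts, and 5 and 5 at a fold of 1, and 8 were higher in cluster 4 alone. In stroma-like nuclei they numbered 3 and 1 at start sites, 1 and 0 when thinned, and 0 and 0 at a fold of 1, with 6 higher at 400 counts, 4 higher without clusters 9 and 12, and 7 lower per base of peak. In ureteric epithelium-like nuclei the higher count was 2 with each library clustered alone and at resolution 0.5, 3 per base of peak, and 0 when thinned, at 400 counts or at a fold of 1. In endothelial-like nuclei the lower count was 2 per base of peak and 0 with start site regions, median of ratios scaling, thinning, doublet-like nuclei removed, libraries clustered alone, 400 counts or a fold of 1. Cluster pairs, the stroma without 2 clusters and the count per base were chosen after seeing the data. The minimum of 5000 counts, a naming lead of 0.2 and member regions kept in clustering moved no count by over 1.5 times. For CPM levels, counting each cut site alone narrowed the intervals and left the values as they were.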
